A study of Sus scrofa with 21 samples.

Results

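Aminoacyl tRNA synthetases are the enzymes that load each tRNA with its amino acid, and their transcripts were compared in the whole blood of pigs of 2 breeds. A gene was a member when its name in the scanner files was a single letter followed by ARS, with or without a final 1 or 2, or was EPRS, FARSA, FARSB, AIMP1, AIMP2 or EEF1E1. The array prints some names in lower or mixed case (wars, Dars, carS). With letter case ignored the rule found 35 genes of the 10900 named on the array, and with letter case as printed it found 25. All 35 were among the 9321 genes tested. Blood came from 10 SLAdd (DD) minipigs and 11 Large White (LW) pigs, all 60 days old and untreated. The DD line is an inbred minipig line fixed for 1 haplotype of the swine leukocyte antigen (SLA) locus, so the effect of that locus and of the rest of the line's genome cannot be told apart. The LW pigs are a commercial breed raised on the same farm. The DD pigs came from 5 litters and the LW pigs from 6, and siblings share a sow.

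Each synthetase recognises 1 amino acid and the tRNAs that accept it, and joins them at the cost of ATP. Cytosol and mitochondria hold separate sets, most of them encoded by different nuclear genes, and the mitochondrial enzymes carry the suffix 2. In the cytosol several synthetases are held in a multisynthetase complex by the scaffold proteins AIMP1, AIMP2 and EEF1E1. In blood these genes are expressed in nucleated cells and in the maturing red cells that still make protein.

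The members divided into 18 cytosolic enzymes, 12 mitochondrial enzymes, 2 enzymes that serve both compartments from 1 gene (GARS and KARS) and 3 scaffold proteins. No probe named 5 further mitochondrial enzymes (EARS2, SARS2, TARS2, WARS2 and YARS2), which were not analysed here. The members had 68 probes, of which 67 passed the filter on dim signal. Values are log2 normalized intensities, and a difference is the log2 fold change (FC) of DD minus LW from a linear model with chip as a fixed effect and sow as a random block. A gene passed when its limma p-value, adjusted by Benjamini-Hochberg over all genes tested, was below 0.05.

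The arrays lay on 3 chips, each holding both breeds, and the DD arrays were dimmer. Array brightness, taken as the upper quartile of the processed signals in log2 (the 75th percentile), averaged 7.53 ± 0.54 on the 10 DD arrays and 8.22 ± 0.38 on the 11 LW arrays (mean ± SD). Between 44.7% and 61.0% of probes were well above background on DD arrays, and between 53.0% and 63.8% on LW arrays. Precision is limited by how many arrays there were. Whole blood is a mixture, so fewer cells of a type and less RNA per cell cannot be told apart.

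Of the 35 members, 12 passed (34.3%), with 3 higher and 9 lower in DD pigs. Of all genes tested, 23.5% passed, 11.1% higher and 12.4% lower. The differences of 29 members were below 0, and their median was -0.21, beside -0.07 for all genes tested. The balance of directions depended on the scaling. Scaled to the 75th percentile instead of quantile normalized, the members had 3 higher and 4 lower, and 64.7% of the calls over all genes were higher in DD pigs, beside 47.3% with quantile normalization. By cyclic loess they had 3 higher and 3 lower, and 65.8% of all calls were higher. That is 17.1% of members, beside 20.9% of all genes tested. Leaving out 1 pig at a time, the members passing ran from 2 (5.71%, without DD 21, LW 18 or LW 22) to 20 (57.1%, without DD 6). Of all genes tested, 11.2%, 8.21% and 14.1% passed without DD 21, LW 18 and LW 22, and 37.3% without DD 6. Without the sow block, whose estimated correlation was below 0 (-0.10), 7 members passed (3 higher, 4 lower), and with litter means 8 (3 higher, 5 lower). No member had DD and LW ranges that were wholly apart, which 0.365% of all genes tested had. The mitochondrial gene FARS2 came closest, and it had the lowest adjusted p of the members.

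**Figure D1:**
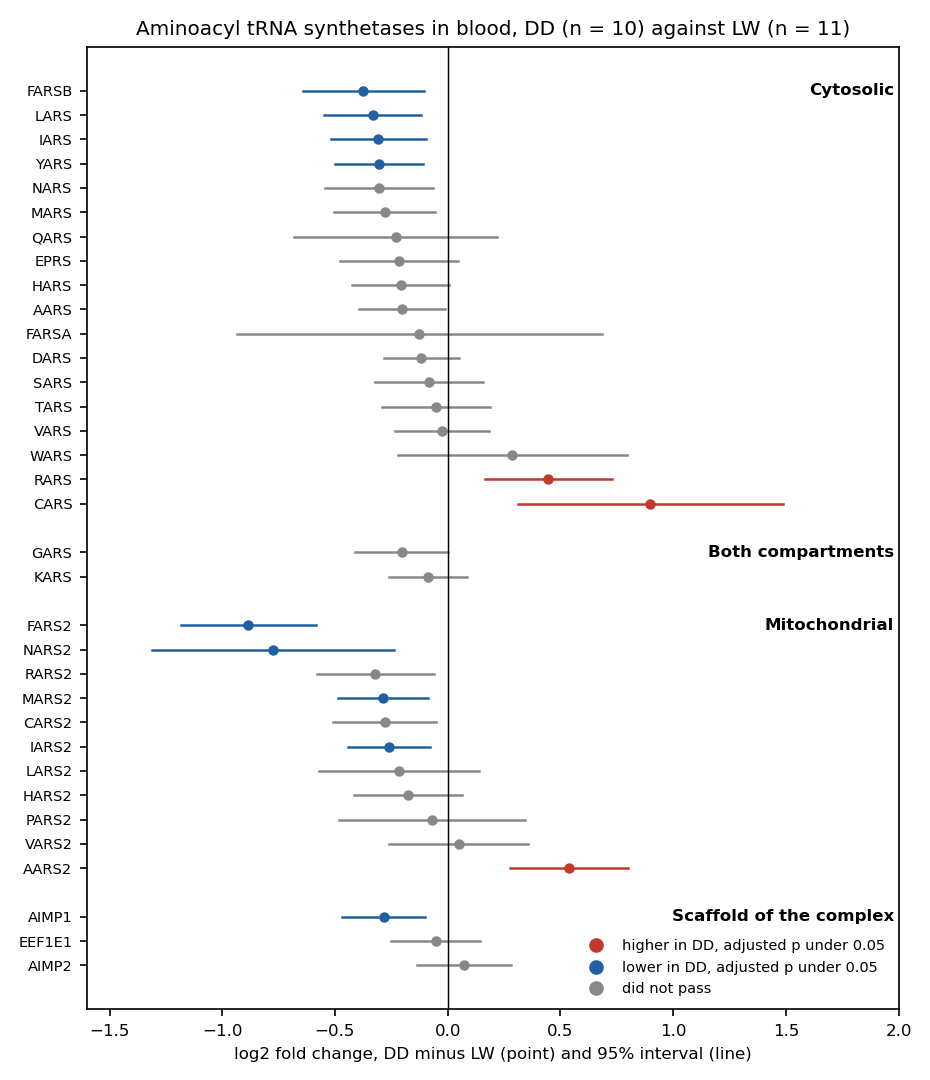
The log2 fold change of the members reported by name, DD minus LW, with its 95% interval, by class of enzyme (10 DD and 11 LW pigs). Most points lie left of 0, FARS2 lies lowest at -0.88, and CARS, AARS2 and RARS are the 3 that were higher in DD pigs.

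FARS2, the mitochondrial phenylalanyl tRNA synthetase, was 1.85-fold lower in DD pigs. The gene lies at chr7:3193433-3557413 of Sscrofa11.1. Its log2 intensity had a low of 7.35, a median of 7.81 and a high of 8.20 in DD pigs, against 8.08, 8.77 and 9.10 in LW pigs. Thus 8 of 10 DD pigs lay below every LW pig, and 9 of 11 LW pigs lay above every DD pig. FARS2 differed by -0.88 (log2 FC), with an SE of 0.14 and an adjusted p from limma of 0.000456.

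FARS2 was measured by 2 probes of 60 bases that overlap, so they are no independent readings of the transcript. Their first 30 bases are shown, with capitals for the 27 bases that both starts share.
FARS2 probe A: GGAGACAAATGGGTCAGTCTCAGGACTttc
FARS2 probe B: tctGGAGACAAATGGGTCAGTCTCAGGACT
Tested on its own over all kept probes, probe A stood at -0.79 (SE 0.16, limma adjusted p = 0.00228) and probe B at -0.98 (SE 0.14, limma adjusted p = 0.000125). Of all kept probes, 21.7% passed this test.

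Within chips, the FARS2 mean of DD minus that of LW came to -0.82 (chip 1), -0.61 (chip 2) and -1.30 (chip 3), below 0 each time. With array brightness in the model, FARS2 was the only member that passed, at a log2 FC of -0.87 (limma adjusted p = 0.0172). Without chip 3 its log2 FC was -0.68 and the call was lost (limma adjusted p = 0.0776).

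NARS2, MARS2 and IARS2, the mitochondrial enzymes for asparagine, methionine and isoleucine, also fell in DD pigs. For NARS2 the log2 intensity ran from 2.53 through a median of 4.85 to 5.29 in DD pigs and from 4.57 through 5.49 to 6.22 in LW pigs. Every DD pig lay below the LW median, and 3 of 10 lay below every LW pig. NARS2 differed by -0.78, with an SE of 0.26 and an adjusted p from limma of 0.0359. Its single probe was well above background on 1 of 10 DD arrays and 10 of 11 LW arrays, so most DD values are near the limit of measurement. The within-chip differences of NARS2 were -0.20, -0.21 and -2.18, and the largest is on chip 3, where pig DD 21 had the lowest value. The NARS2 call was lost in 11 of 39 alternative fits.

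MARS2 ran from 6.34 through a median of 6.75 to 7.16 in DD pigs and from 6.69 through 7.08 to 7.34 in LW pigs. The ranges overlapped, with 4 of 10 DD pigs below every LW pig, and MARS2 differed by -0.29 (SE 0.10, limma adjusted p = 0.0378). Neither of its 2 probes passed on its own (-0.38, SE 0.14, limma adjusted p = 0.0591, and -0.19, SE 0.08, limma adjusted p = 0.0915). The MARS2 call was lost in 20 of 39 alternative fits. IARS2 ran from 7.06 through 7.43 to 7.70 in DD pigs and from 7.41 through 7.69 to 7.85 in LW pigs. Here 5 of 10 DD pigs lay below every LW pig, and IARS2 differed by -0.26 (SE 0.09, limma adjusted p = 0.0387). Its 4 probes did not read alike. On their own they stood at -0.01, -0.31, -0.26 and -0.47, with limma adjusted p of 0.972, 0.0493, 0.155 and 0.116 in that order. The IARS2 call was lost in 26 of 39 alternative fits. IARS2 lies on chromosome 10 close to EPRS, at chr10:9685641-9739816 beside chr10:9579301-9648416 of Sscrofa11.1.

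AARS2, the mitochondrial enzyme for alanine, rose in DD pigs, against the sign of most members. Its log2 intensity ran from 7.15 through a median of 7.75 to 8.80 in DD pigs and from 6.99 through 7.26 to 7.90 in LW pigs. Of the DD pigs, 9 of 10 lay above the LW median and 4 of 10 above every LW pig. AARS2 differed by 0.54, with an SE of 0.13 and an adjusted p from limma of 0.00803.

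The 2 AARS2 probes do not overlap in sequence, and each passed when tested on its own, the first at 0.71 (SE 0.20, limma adjusted p = 0.0217) and the second at 0.36 (SE 0.11, limma adjusted p = 0.0270). Across the 21 arrays, after removal of breed and chip, the first probe moved against array brightness (Pearson r = -0.92) and the other did so little (r = -0.16). These r are descriptions over arrays that share litters. The first probe also holds TTTATT, the opposite-strand reading of the polyadenylation signal AATAAA, and its strand was not tested. The within-chip differences of AARS2 were 0.11, 0.60 and 0.93.

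The mitochondrial class as a whole had 4 members lower and 1 higher of 12 tested, and 10 differences below 0, with a median of -0.27. So 41.7% of the class passed, beside 23.5% of all genes tested, whose median was -0.07. VARS2, the mitochondrial enzyme for valine, did not pass, with a log2 FC of 0.05 and a 95% interval from -0.26 to 0.36.

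**Figure D2:**
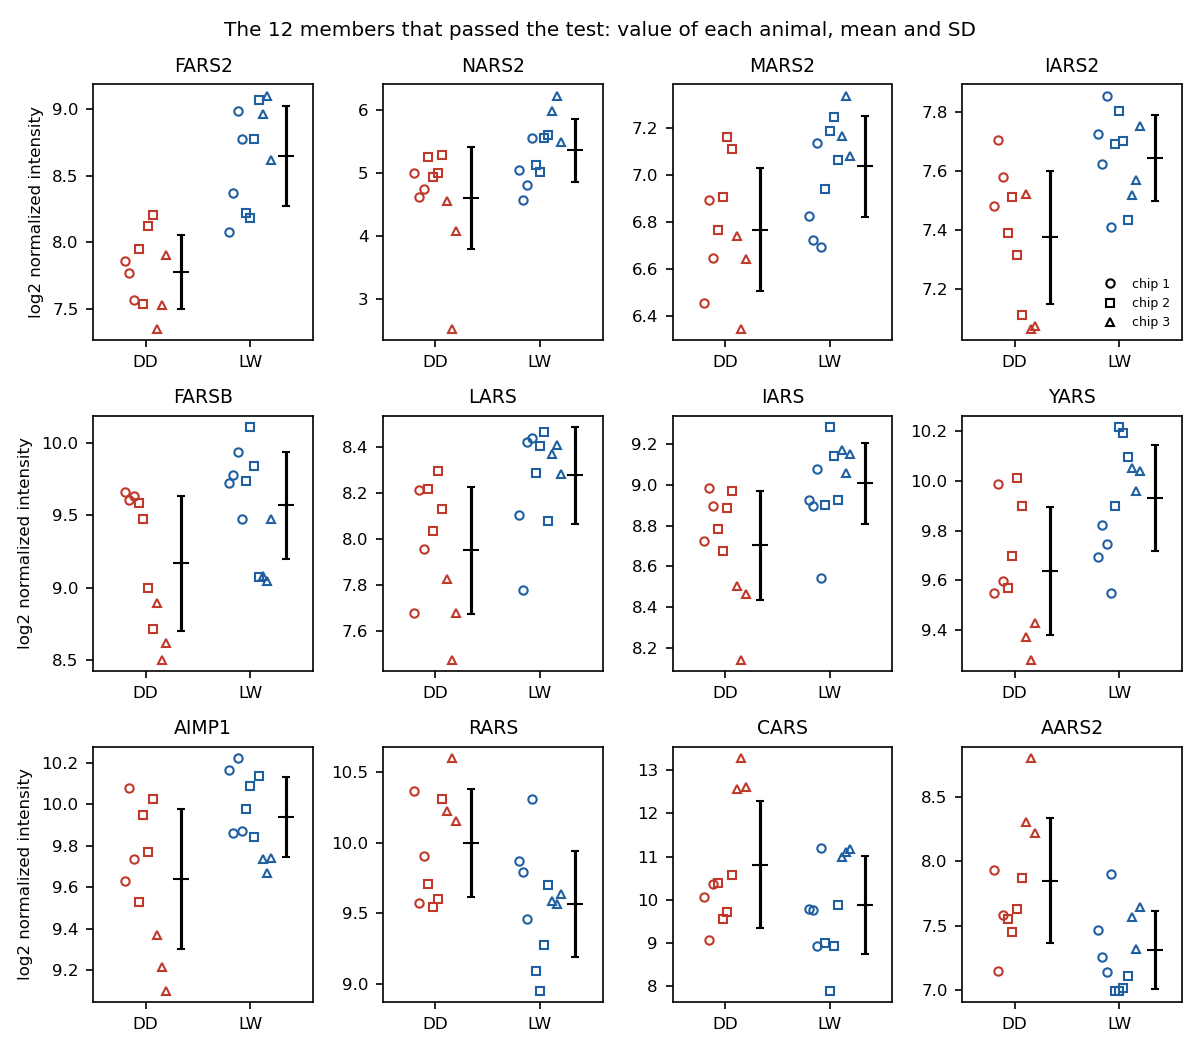
Log2 normalized intensity of each pig for the 12 members that passed, with the chip marked by symbol and the mean and SD of each breed at the side (10 DD and 11 LW pigs). The DD and LW values of FARS2 overlap least, and the DD arrays of chip 3 (triangles) hold the lowest or highest values of most panels.

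Among the 18 cytosolic enzymes, FARSB, LARS, IARS and YARS fell in DD pigs and RARS and CARS rose. These are 33.3% of the class, beside 23.5% of all genes tested. The median of the class was -0.21, and 15 differences were below 0. FARSB is the beta subunit of the cytosolic phenylalanyl enzyme, which works as a pair of alpha and beta subunits. Its log2 intensity ran from 8.50 through a median of 9.24 to 9.66 in DD pigs and from 9.05 through 9.72 to 10.11 in LW pigs. All 10 DD pigs lay below the LW median and 5 below every LW pig. FARSB differed by -0.37, with an SE of 0.13 and an adjusted p from limma of 0.0405. Its first probe passed on its own (-0.37, SE 0.10, limma adjusted p = 0.0169). The second, with a wider spread, did not (-0.38, SE 0.21, limma adjusted p = 0.196). The FARSB call was lost in 23 of 39 alternative fits.

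LARS and IARS charge the branched-chain amino acids leucine and isoleucine, and YARS charges tyrosine. LARS ran from 7.47 through a median of 7.99 to 8.29 in DD pigs and from 7.78 through 8.37 to 8.46 in LW pigs, and its log2 FC was -0.33 (SE 0.10, limma adjusted p = 0.0285). IARS ran from 8.14 through 8.75 to 8.99 in DD pigs and from 8.54 through 9.06 to 9.28 in LW pigs, and its log2 FC was -0.31 (SE 0.10, limma adjusted p = 0.0359). For both enzymes every DD pig lay below the LW median and 3 of 10 lay below every LW pig. IARS had 3 probes, and the first and the third have the same sequence, so they are no independent readings. Tested on their own, these stood at -0.39 (SE 0.13, limma adjusted p = 0.0350) and -0.37 (SE 0.11, limma adjusted p = 0.0262). The other IARS probe stood at -0.16 (SE 0.10, limma adjusted p = 0.266). YARS ran from 9.28 through 9.58 to 10.01 in DD pigs and from 9.55 through 9.96 to 10.22 in LW pigs, and its log2 FC was -0.31 (SE 0.09, limma adjusted p = 0.0273). The YARS ranges overlapped as well, with 4 of 10 DD pigs below every LW pig. The YARS probes overlap in sequence. On their own they stood at -0.25 (SE 0.11, limma adjusted p = 0.0922) and -0.36 (SE 0.10, limma adjusted p = 0.0187). Of 39 alternative fits, the call was lost in 10 for LARS, 17 for IARS and 12 for YARS.

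RARS charges arginine. Its mean over 2 probes was higher in DD pigs, by a log2 difference of 0.45 (SE 0.14, limma adjusted p = 0.0259), but the probes did not read alike. They do not overlap in sequence, and their first 30 bases are shown so that they can be told apart.
RARS probe A: gtgtgtttttaccaaagtggccattggcat
RARS probe B: attttttggacaggctttattcccaggata
Probe A ran from 9.56 through a median of 9.91 to 10.44 in DD pigs and from 9.73 through 10.06 to 10.28 in LW pigs, and its log2 FC on its own was -0.08 (SE 0.11, limma adjusted p = 0.605). Probe B ran from 8.81 through 10.07 to 11.52 in DD pigs and from 7.63 through 9.05 to 10.89 in LW pigs, and its log2 FC was 0.97 (SE 0.28, limma adjusted p = 0.0229). The RARS call therefore rests on probe B. After removal of breed and chip, probe B moved against array brightness at r = -0.92, and probe A moved with it at r = 0.56. Probe B holds TTTATT, which is the polyadenylation signal AATAAA read on the opposite strand. TTTATT is in 6 of the 68 member probes and in 4.32% of the 60305 probes of this length. Besides probe B and the first AARS2 probe, these are probes of FARSB, HARS, QARS and EEF1E1. Their log2 FC was below 0 (-0.38, -0.21, -0.23 and -0.11) and their r with brightness above 0 (0.27, 0.38, 0.23 and 0.29). AATAAA itself is in 21 member probes and 10.3% of all. Such a match is a description, and whether the probes match the transcript and its strand was not tested, since no genome sequence was used.

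CARS charges cysteine, and the single probe printed with its name had the largest fold among members, 1.86-fold higher in DD pigs. Whether this probe matches the CARS transcript and its strand was not tested. Its log2 intensity ran from 9.06 through a median of 10.37 to 13.27 in DD pigs and from 7.90 through 9.80 to 11.20 in LW pigs. The spread within breeds was wide, with 3 of 10 DD pigs, all on chip 3, above every LW pig. CARS differed by 0.90, with an SE of 0.28 and an adjusted p from limma of 0.0293. The probe is printed as carS and is thus a member only with letter case ignored, which starts with these 30 bases.
CARS probe: agtaaaacacgtcgaacttgaagtaattcc
The SD of this probe was 1.46 in DD and 1.13 in LW pigs, beside a median of 0.42 over all kept probes. Its within-chip differences were -0.10, 1.13 and 1.72, and it moved against array brightness (r = -0.88). With brightness in the model its log2 FC was -0.04. In 11 of 38 alternative fits its sign held but the call was lost.

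**Figure D3:**
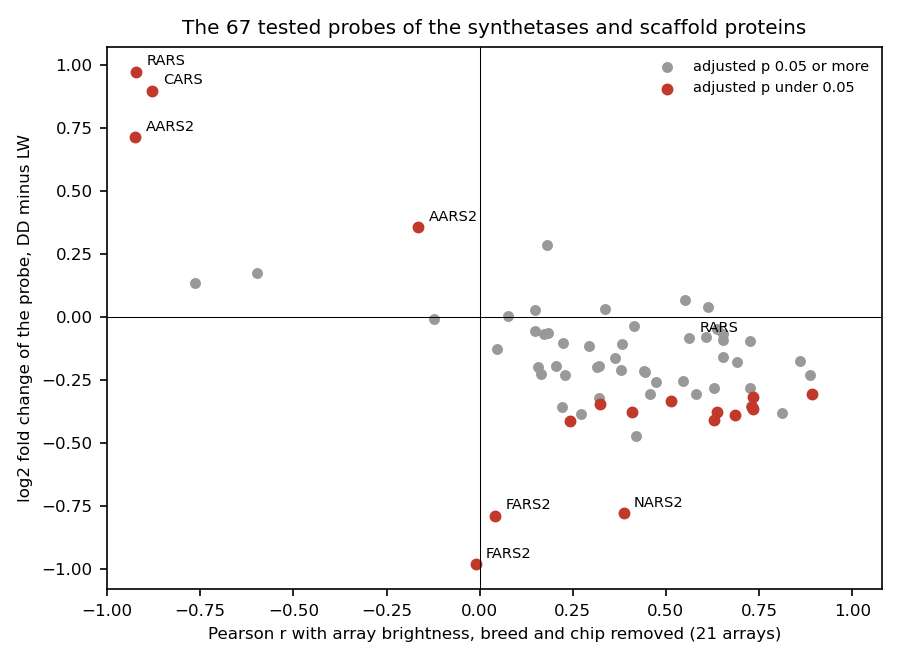
Each of the 67 tested probes, with its Pearson r with array brightness over 21 arrays after removal of breed and chip (horizontal axis) and its log2 fold change, DD minus LW (vertical axis). Probes of RARS, CARS and AARS2 with the highest fold changes sit at r of about -0.9, and the 2 FARS2 probes sit near r = 0.

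EPRS joins the enzymes for glutamate and proline in 1 chain. Its log2 FC was -0.22 (SE 0.13, limma adjusted p = 0.205), and 6 of 10 DD pigs lay below every LW pig while 1 lay above every LW pig. Of its 2 probes, the first passed on its own (log2 FC -0.34, SE 0.11, limma adjusted p = 0.0361) and the second, with a wider spread, did not (-0.09, SE 0.21, limma adjusted p = 0.779). The DARS probes had opposite signs, a reason for naming this aspartate enzyme that was found after its values were seen. They stood at -0.41 (SE 0.12, limma adjusted p = 0.0227) and 0.17 (SE 0.12, limma adjusted p = 0.299), and their mean at -0.12 did not pass (limma adjusted p = 0.280). The second DARS probe was dim, well above background in 3 of 10 DD and 6 of 11 LW pigs.

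VARS, the cytosolic enzyme for valine, and VARS2 are both in the SLA region, at chr7:23886132-23899265 and chr7:23404400-23416442 of Sscrofa11.1. Neither passed. VARS had a log2 FC of -0.03, with a 95% interval from -0.24 to 0.18. Of the probes printed as VARS, 2 carry identifiers of VARS2 and were counted there. The cytosolic AARS, FARSA, HARS, MARS, NARS, QARS, SARS and TARS and the mitochondrial CARS2, HARS2, LARS2, PARS2 and RARS2 did not pass. Their log2 FC ranged from -0.32 to -0.05, and their adjusted p from limma from 0.0591 to 0.827.

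GARS and KARS, whose products charge glycine and lysine in both compartments, did not pass. GARS had a log2 FC of -0.20 with a 95% interval from -0.41 to 0.00151, and KARS of -0.09 with an interval from -0.26 to 0.08. Among the scaffold proteins only AIMP1, which binds tRNA and anchors the complex, fell in DD pigs. Its log2 intensity ran from 9.10 through a median of 9.68 to 10.08 in DD pigs and from 9.67 through 9.87 to 10.22 in LW pigs, so 5 of 10 DD pigs lay below every LW pig. AIMP1 differed by -0.28, with an SE of 0.09 and an adjusted p from limma of 0.0290. The AIMP1 call was lost in 14 of 39 alternative fits. All 9 AIMP1 probes had differences below 0, from -0.41 to -0.16, and 3 passed on their own. Among them 3 probes overlap one another and 2 others overlap, so the 9 form 6 separate stretches and are not independent readings. AIMP2 stood at 0.07 (95% interval -0.14 to 0.28) and EEF1E1 at -0.05 (-0.25 to 0.14).

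The 11 proteins of the multisynthetase complex had 3 members lower (AIMP1, IARS and LARS) and 1 higher (RARS), with a median of -0.22. The 12 enzymes of cytosol or both compartments outside the complex had 2 lower (FARSB and YARS) and 1 higher (CARS), with a median of -0.16. The members passing were 36.4% of the complex and 25% of the set outside it, beside 23.5% of all genes tested. The difference between the 2 sets was not tested. For 12 amino acids a cytosolic and a mitochondrial enzyme were both measured, in 13 pairs since phenylalanine has 2 cytosolic subunits. Both members were below 0 in 9 pairs and opposite in sign in 4 pairs, which were those of alanine, cysteine, arginine and valine. Both members passed as lower in 2 pairs, FARSB with FARS2 and IARS with IARS2.

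The differences varied between chips. On chip 1, with 3 DD and 4 LW arrays, 16 of 35 members were below 0 and their median was 0.01. On chip 2, with 4 and 4 arrays, 29 were below 0 with a median of -0.22, and on chip 3, with 3 and 3 arrays, 26 were below 0 with a median of -0.39. The medians of all genes tested were -0.01, -0.07 and -0.08. The brightness of DD minus LW arrays took the same order, at -0.07, -0.76 and -1.27. Within breed and chip, the r with brightness was above 0 for 31 of 35 members, some of them close to 0 (FARS2 at 0.017), beside 61.3% of all genes tested. It was above 0.5 for 16 members, and the median was 0.44 for members and 0.17 for all genes tested.

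With brightness in the model, 1 of 35 members passed (FARS2), beside 2.35% of all genes tested. Without chip 3, 0 of 35 passed, beside 1.12% of all genes. In the 9 members that had fallen, the differences on chip 1 ran from -0.82 to 0.01 with 7 below 0, and on chips 2 and 3 all 9 were below 0. Brightness and breed are themselves related on these arrays, and the part of brightness in the breed difference was not tested.

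**Figure D4:**
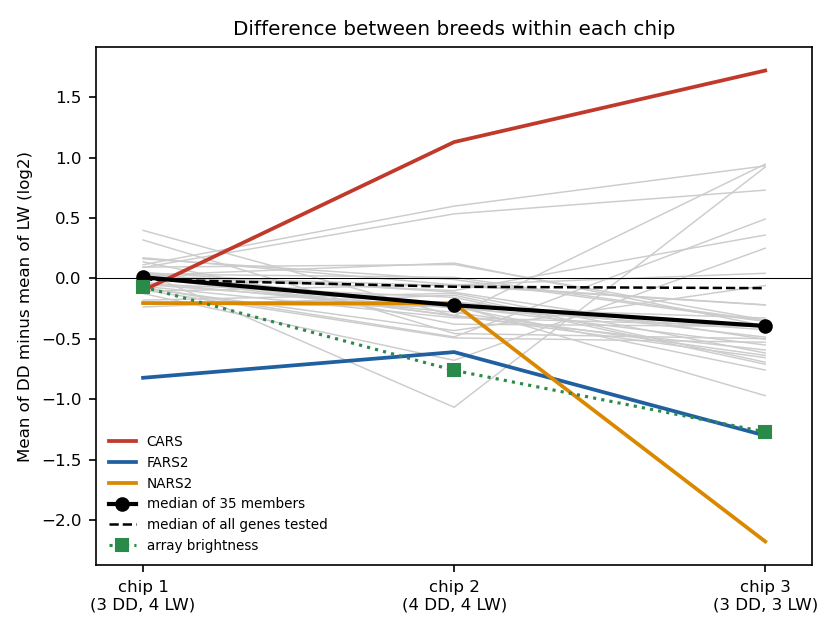
Mean of DD minus mean of LW within each chip, on a log2 scale, for each of the 35 members (grey, with FARS2, NARS2 and CARS in colour), their median, the median of all genes tested and array brightness. FARS2 is below 0 on all 3 chips, whereas the median of the members moves from 0.01 to -0.39 with the brightness difference.

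Genes of the steps around tRNA charging were counted by lists. Of 5 genes related to the synthetases or to selenocysteine charging, 3 were lower and none higher, with a median of -0.34. That is 60% of a short list, beside 23.5% of all genes tested. The 3 were DTD1, which removes D-amino acids from tRNA (log2 FC -0.83, SE 0.10), PTRH2, a peptidyl tRNA hydrolase (-0.34, SE 0.09), and SEPSECS, which makes selenocysteyl tRNA (-0.37, SE 0.12). QRSL1, a subunit of the mitochondrial amidotransferase that makes glutaminyl tRNA, was lower by the same test (-0.78, SE 0.17), 1 of 2 genes of its list.

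Of 15 genes for tRNA ends, splicing and export, 5 were lower and 1 higher, with a median of -0.14. POP4, a subunit of RNase P, had a log2 FC of -0.48 (SE 0.11), and XPOT, which exports tRNA from the nucleus, of -0.32 (SE 0.10). These 6 are 40% of the list, beside 23.5% of all genes tested. Of 25 tRNA modification genes, 3 were lower and 2 higher, with a median of -0.12, so 20% passed, fewer than among all genes. The 3 with the lowest p were as follows. TYW3, a wybutosine enzyme that modifies phenylalanine tRNA, stood at -0.79 (SE 0.19), TRMU, which thiolates mitochondrial tRNAs, at -0.46 (SE 0.12), and PUS7, a pseudouridine synthase, at -0.47 (SE 0.13).

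Cytosolic elongation factors had 3 of 8 genes lower and none higher (37.5%, beside 23.5% of all genes tested), with a median of -0.40. EEF1B2 and EEF1D, exchange factors of the elongation factor that delivers charged tRNA, stood at -0.47 (SE 0.11) and -0.41 (SE 0.11), and EEF2K, the kinase of elongation factor 2, at -0.49 (SE 0.14). Of 7 mitochondrial elongation and release factors, 1 was lower (14.3%, a smaller share than among all genes), MTRF1 at -0.31 (SE 0.11). The transcription factor ATF4 raises many synthetase genes when amino acids are short. A list of this response held its other targets and also ATF4 itself, EIF2AK4 and GCN1. Of the 25 genes tested from it, 4 were lower and 2 higher, with a median of -0.05. That is 24% of the list, near the 23.5% of all genes tested, and the median is near theirs. The lowest p among them belonged to DDIT4 (-0.83, SE 0.13), ALDH18A1 (-0.39, SE 0.09) and ATF5 (0.39, SE 0.10).

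Of the lists of blood cell markers, those of T cells (30.8%) and erythroid cells (37.5%) had a larger share passing than all genes tested (23.5%), and the other 5 a smaller one, from 0% to 20%. Of 13 T cell markers tested, 4 were lower in DD pigs and none higher, and their mean log2 level ran from 7.85 to 9.31 in DD pigs and from 8.28 to 9.34 in LW pigs. Of 16 erythroid markers, 6 were higher and none lower, and their mean level ran from 8.99 to 10.12 in DD pigs and from 8.78 to 9.89 in LW pigs. Of the other lists, 1 of 11 B cell markers was higher, 0 of 12 cytotoxic and NK cell markers passed, 1 of 8 granulocyte markers was higher, 1 of 15 monocyte markers was higher and 2 lower, and 1 of 13 platelet markers was lower. The part of these cell types in the synthetase differences was not tested.

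WARS, the tryptophan enzyme, is the synthetase known to be induced by interferon. Its log2 intensity ran from 4.86 through a median of 6.34 to 7.46 in DD pigs and from 4.57 through 6.40 to 6.94 in LW pigs, so the ranges overlapped almost wholly. WARS differed by 0.29 (SE 0.24), which did not pass (limma adjusted p = 0.396) and had a 95% interval from -0.22 to 0.79. It had 1 probe, well above background on 8 of 10 DD and 11 of 11 LW arrays. The SD of this probe was 0.76 in both breeds, beside a median of 0.42 over all kept probes. Of 35 interferon-stimulated genes tested, 13 were higher in DD pigs and none lower, with a median of 0.54. That is 37.1% of the list, beside 23.5% of all genes tested, of which 11.1% were higher and 12.4% lower. The 13 included IFIT1 (log2 FC 0.82, SE 0.15), MX2 (1.41, SE 0.31) and MX1 (1.47, SE 0.37).

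Over the 11 litters, with chip effects and breed means removed, WARS and the mean of the interferon-stimulated genes had r = 0.48 (exact permutation within breeds, two-sided, p = 0.350) and rho = 0.04 (exact p = 0.927). Over the 6 LW litters alone r was -0.48 (exact p = 0.319) and rho was -0.49 (exact p = 0.356). Without the 2 litters farthest from the median of the interferon-stimulated genes, r was -0.38 (exact p = 0.365) and rho -0.15 (exact p = 0.743). Without the litter of DD 6 alone, r was -0.34 (exact p = 0.315) and rho -0.38 (exact p = 0.259). The positive sign therefore rests on that litter, and no relation held beyond the spread between litters.

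**Figure D5:**
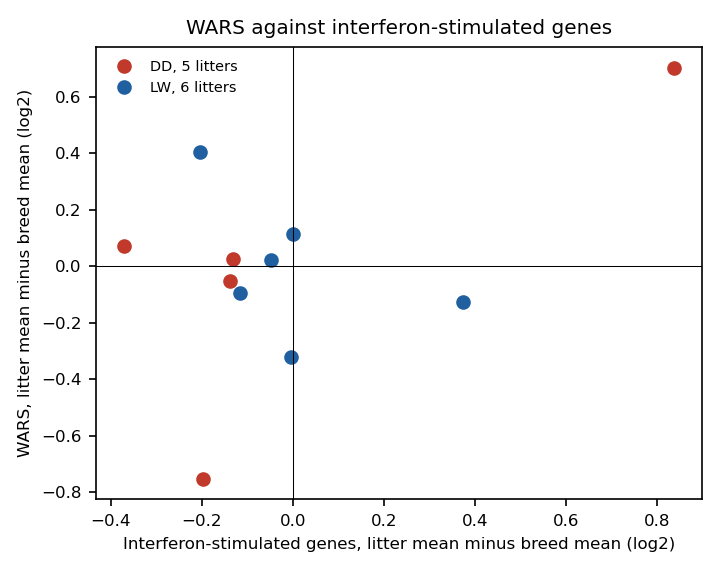
Litter means of WARS (vertical axis) and of 35 interferon-stimulated genes (horizontal axis), each minus the mean of its breed, on a log2 scale with chip effects removed (5 DD and 6 LW litters). 1 DD litter lies apart at the upper right, and the other points show no slope that the test could tell from 0.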

How the data were processed

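Transcripts in whole blood were measured in 21 pigs (10 DD, 11 LW), 1 one-colour Agilent array each. Per the labels, the scanner files were made with Agilent Feature Extraction 10.7.3.1 and hold the intensity of each spot and of its local background, not normalized between arrays. The authors removed 3 arrays of 24 as outliers, described a technical bias of the third chip, and deposited log2 values after normexp background correction and quantile normalization. These log2 values were used here, and they correlated at r = 0.998 or more with values rebuilt from the scanner intensities.

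Controls and the 25% of probes with the lowest mean were removed, and the kept probes of a gene were averaged. Genes were named by the scanner files' gene names where a RefSeq gene table lists them as symbol or synonym (21733 probes, 10900 genes, with 38572 probes not named). Letter case was ignored, and 2 probes printed as VARS that carry identifiers of VARS2 were given to VARS2. Positions are those of RefSeq on Sscrofa11.1, found for 34 of 35 members.

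The model was fitted in limma 3.58.1 (R 4.3.3, statmod 1.5.0) over 9321 genes, with breed and chip as fixed effects, sow as a random block by duplicateCorrelation (consensus correlation -0.10) and eBayes, two-sided. Litter and chip came from the study's own sample list. Named with values were all members past the threshold, GARS, KARS, WARS, VARS, VARS2, EPRS, AIMP1, AIMP2 and EEF1E1 in any case, in all 20, and up to 3 called genes of each pathway list with the lowest p. Some genes within the counts are not reported here by name. The members and lists were chosen with earlier results of these data known, and lists were only counted, not tested. Alternatives were other background corrections and scalings, filters and namings, a model without the sow block, a model of litter means, a model without the chip, fits that dropped 1 chip, brightness as a covariate, trend and robust moderation, and each animal left out. Single probes and names exactly as printed were added after the data were seen. The steps were tested on simulated data. The simulation held no effect of array brightness and a positive correlation of siblings, unlike these data. Figures were drawn with matplotlib 3.10.9.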

Additional observations from a re-analysis of the deposited data

Results flagged for a closer look

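Among 23 sets of 10 DD values examined for a pig far from the rest, 2 held one by Dixon's ratio of the gap to the range. Chance gives this in about 1 in 20 sets. For NARS2 the ratio was 0.563, since pig DD 21 stood at a log2 intensity of 2.53 and the next DD pig at 4.08. Without that pig the log2 FC of NARS2 was -0.54 and did not pass (limma adjusted p = 0.0584). For VARS the ratio was 0.511, since pig DD 13 stood at 9.81 and the next DD pig at 9.27. Groups of 11 LW pigs were not examined this way.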

How the results depend on the processing

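FARS2 passed in all 21 fits that left out 1 animal (log2 FC from -0.95 to -0.83) and in 17 of 18 other alternatives, the exception being without chip 3. AARS2 also passed in all 21, and in 14 of 18 other alternatives, with a log2 FC as low as 0.16 among these. The other 10 members that had passed did so in 6 (IARS2) to 18 (RARS) of the 21. The number of members passing, 12 of 35, moved by over 1.5 times without DD 6 (20), DD 19 (5), DD 21 (2), DD 23 (3), LW 5 (5), LW 12 (7), LW 14 (7), LW 18 (2) or LW 22 (2), and also without the sow block (7) or chip term (1), without chip 3 (0), by 75th percentile scaling (7) or cyclic loess (6) and with brightness as a covariate (1); with litter means it was 8. In these fits the share of all genes tested that passed ran from 1.12% (without chip 3) to 37.3% (without DD 6), beside 23.5% in the main fit. Leaving out 1 animal at a time, all genes passing ran from 765 to 3478, cytosolic enzymes from 0 to 10, mitochondrial from 2 to 8, and enzymes of both compartments with scaffold proteins from 0 to 2. The median log2 FC then ran from -0.26 to -0.15 (cytosolic) and from -0.30 to -0.23 (mitochondrial), VARS from -0.084 to 0.026, and VARS2 from -0.00188 to 0.14.

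With array brightness as a covariate, 219 genes passed, 0 cytosolic, 1 mitochondrial and 0 of both compartments or the scaffold, with a median log2 FC of cytosolic synthetases of -0.040 and a median log2 FC of mitochondrial synthetases of -0.015. Signs turned for CARS (-0.040), AIMP2 (-0.033), EEF1E1 (0.11), EPRS (0.092), KARS (0.071) and VARS (0.16). Without chip 3, 104 genes passed and 0, 0 and 0 members of these classes, with a mitochondrial median of -0.13 and turned signs for AIMP2 (-0.081), EEF1E1 (0.083), KARS (0.027), VARS (0.11) and WARS (-0.071). With no chip term 611 genes passed, and 0, 1 and 0 members. Without chip 1, 10 of 18 cytosolic enzymes passed, beside 26.3% of all genes tested, and VARS2 stood at -0.027. Without chip 2, 2 passed, beside 16.1% of all genes tested. The cause of these moves was not tested.

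Scaled to the 75th percentile, 3 cytosolic enzymes and 0 of both compartments or the scaffold passed, and DARS (0.038), KARS (0.042) and VARS (0.10) turned sign. By cyclic loess, 3 cytosolic, 3 mitochondrial and 0 others passed, the median log2 FC of cytosolic synthetases was -0.094, and EEF1E1 (0.018), KARS (0.041) and VARS (0.11) turned sign. Of all genes tested, 21.5% passed by 75th percentile scaling and 20.9% by cyclic loess. VARS also turned sign from the scanner intensities (0.00915) and with names as printed (0.021). With the brightest probe of each gene RARS stood at -0.082 and 0 of both compartments or the scaffold passed. Of the 12 mitochondrial enzymes tested, those passing were 3 with no filter, 2 without the sow block and 3 with litter means, where 0 of both compartments or the scaffold passed. The shares of all genes tested that passed in these fits were 15.3%, 17.7% and 22.3%, in that order. With every printed gene name tested, 7029 features passed. The WARS correlation turned to -0.48 in the 6 LW litters, -0.38 without the 2 farthest litters and -0.34 without the litter of DD 6.

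No paired analysis was possible because the DD and LW pigs carry individual numbers that are not shared between the breeds. Dim signal limits NARS2, detected well above background on 1 DD array, RARS2, on 2, and the second DARS probe, on 3.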
